A study of Mus musculus with 18 samples.

Results

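Interferon-stimulated genes were followed in terminal bronchiolar epithelial cells of mice that carried the Cebpa d/d genotype and of control mice. The set holds 40 genes, of which 37 had a measured probe set with a single gene symbol, out of 19938 genes measured in this way. Isg15, Gbp2 and Ifi44 had no such probe set and were not analysed here. Irf1 alone among the 37 had more than 1 probe set, and the brighter of its probe sets, by the mean of the 18 arrays, was read. Values are log2 levels, on which a difference of 1 is a 2-fold difference.

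Interferons are secreted proteins that warn cells of infection. Type I and type III interferons act through receptors and Janus kinases on a transcription factor complex that includes Stat2 and Irf9 and binds the interferon-stimulated response element (ISRE), while interferon gamma acts on the gamma-activated site (GAS). The induced genes encode transcription factors, sensors of viral RNA, proteins that block viral replication, ubiquitin-like modifiers, chemokines and parts of the antigen-processing machinery, and airway epithelium is among the tissues that express them upon infection.

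The 6 groups were Cebpa d/d mice and control mice at 0, 3 and 72 hr after naphthalene, a toxin that kills club cells of the airway once these have metabolised it, with 3 arrays per group. The strain of all mice was a mixture of FVB/N and C57BL/6. C/EBP alpha, the product of Cebpa, is a transcription factor of lung epithelial maturation. The construction of the Cebpa d/d allele, the cells that carry it, the ages of the mice and any pooling of animals are not given in the sources used here, so p-values measure only the spread between these arrays. In RNA from bulk samples, fewer cells of a type and less RNA per cell cannot be told apart.

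Of 10 club cell markers 8 were measured, and their summed level on the linear scale ran between 30417 and 35377 at 0 and 3 hr, and between 22884 and 33090 at 72 hr, so none of the groups lacked them. Cebpa had log2 levels of 7.83 to 9.07 in the 9 Cebpa d/d arrays and of 9.69 to 10.52 in 8 of the 9 control arrays. The ninth, the array labelled control 0 hr replicate 1, had a Cebpa level of 7.89, within the Cebpa d/d range and against its label. The Cebpa d/d minus control difference over the mean of the 3 times was -1.58 ± 0.24 with it (SE, limma adjusted p = 0.00953) and -1.82 ± 0.12 without it (adjusted p = 8.07e-07). Results that rest on it are therefore also given with it left out. The array labelled control 3 hr replicate 3 also stood apart, being the highest of the 18 arrays for 15.7% of all genes and the lowest for 11.8%. Xist exceeded the Y-linked Eif2s3y, as in females, in all 3 arrays of each 72 hr group, and in 1 of 3 in each earlier group.

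The promoter sequences below were searched for the ISRE core and the GAS element, response elements through which interferons are known to induce genes. The sequences are those of the 2 members that stood out most in a single array and of 2 members that rose at 72 hr. They are RefSeq windows of 250 bases before and 50 after the gene start on GRCm38.p6, found for 28 of the 37 measured genes. Ifit1 lies at chr19:34640639-34640938 (+ strand), Ifit3 at chr19:34583279-34583578 (+ strand), Ifi35 at chr11:101448162-101448461 (+ strand) and Lgals3bp at chr11:118401910-118402209 (- strand). Capitals mark the ISRE core GAAANNGAAA, read here on the opposite strand, in Ifit1 and Ifit3, and the GAS element TTCNNNGAA in Ifi35.
Ifit1: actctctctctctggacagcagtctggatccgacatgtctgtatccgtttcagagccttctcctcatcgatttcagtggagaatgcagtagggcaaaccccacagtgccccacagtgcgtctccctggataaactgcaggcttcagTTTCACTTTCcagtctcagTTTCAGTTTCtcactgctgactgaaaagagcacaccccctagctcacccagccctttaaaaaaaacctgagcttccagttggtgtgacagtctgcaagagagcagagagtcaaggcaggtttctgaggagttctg
Ifit3: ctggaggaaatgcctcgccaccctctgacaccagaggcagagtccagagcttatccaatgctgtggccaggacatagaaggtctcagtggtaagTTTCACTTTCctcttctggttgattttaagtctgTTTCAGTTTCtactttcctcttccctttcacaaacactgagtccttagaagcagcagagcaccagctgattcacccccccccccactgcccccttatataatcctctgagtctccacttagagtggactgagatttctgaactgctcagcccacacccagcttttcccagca
Ifi35: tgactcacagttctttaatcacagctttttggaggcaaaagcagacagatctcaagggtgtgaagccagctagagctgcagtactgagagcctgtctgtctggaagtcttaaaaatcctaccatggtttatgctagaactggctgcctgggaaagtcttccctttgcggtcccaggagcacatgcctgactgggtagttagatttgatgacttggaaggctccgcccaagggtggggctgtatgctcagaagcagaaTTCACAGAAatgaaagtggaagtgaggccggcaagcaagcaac
Lgals3bp: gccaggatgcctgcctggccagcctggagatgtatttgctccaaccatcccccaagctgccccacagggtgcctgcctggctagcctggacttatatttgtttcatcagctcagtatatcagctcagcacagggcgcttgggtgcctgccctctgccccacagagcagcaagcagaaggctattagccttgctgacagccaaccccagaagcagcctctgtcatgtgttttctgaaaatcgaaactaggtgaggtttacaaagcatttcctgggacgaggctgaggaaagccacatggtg
Ifit1 holds ISRE cores that begin at -104 and -85 from its start, and Ifit3 at -156 and -122. Ifi35 holds a GAS element that begins at 8 and no ISRE core, and the Lgals3bp window holds neither motif. On both strands, the ISRE core was in the windows of 11 of the 28 genes (39.3%) and of 3.99% of all 27025 genes with a window. Those 11 were Bst2, Cxcl10, Ddx58, Eif2ak2, Gbp3, Ifih1, Ifit1, Ifit3, Oas3, Rsad2 and Stat2. The GAS element was in the windows of 6 of the 28 (21.4%), namely Bst2, Eif2ak2, Ifi35, Ifit2, Irf1 and Psmb8, and of 9.55% of all genes. A match describes these letters only and does not show that a factor binds there.

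The widest spread in the set lay in 1 array. The array labelled control 0 hr replicate 1 was the highest of the 18 arrays for 28 of the 37 genes (75.7%), and for 7.59% of all genes. It lay above both other 0 hr controls for 32 of the 37, against 36% of all genes, and at least 1 log2 unit above their mean for 11, against 0.647%. The median gene of the set lay 0.71 above the mean of the other 0 hr controls, and the median of all genes -0.01. Each other array was the highest for at most 2 of the 37 genes. As this array carries a Cebpa level of the Cebpa d/d range, it is set beside both genotypes: it also exceeded all 3 Cebpa d/d 0 hr arrays for 33 of the 37 genes, against 27.4% of all genes.

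**Figure D1:**
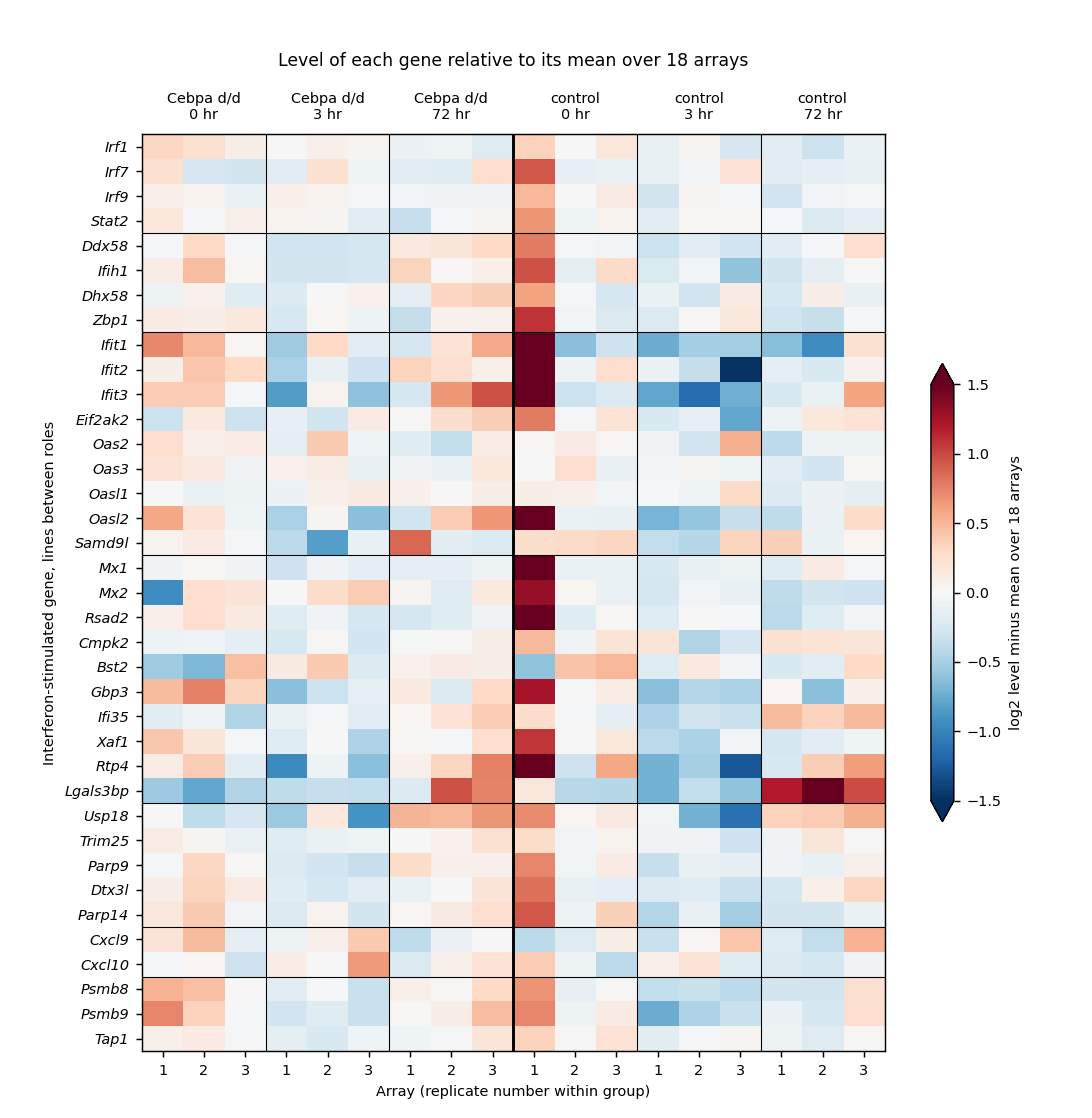
Colour gives the log2 level of each of the 37 genes minus its mean over the 18 arrays, with genes down the page grouped by role and arrays across it, the 9 Cebpa d/d arrays left of the 9 control arrays. The column of the array labelled control 0 hr replicate 1 is the highest for 28 genes, and Lgals3bp is high in most 72 hr arrays.

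The gap between that array and the mean of the other 0 hr controls had a median of 0.69 log2 units over the 9 IFIT and translation-blocking effectors (-0.06 to 3.12), of 1.09 over the 10 other antiviral effectors (-1.07 to 1.79), of 0.84 over the 4 RNA sensors (0.75 to 1.21) and of 0.55 over the 4 transcription factors (0.27 to 1.05). Ifit1, which binds viral RNA that lacks the cap of host messages, was at 9.04 there, against 5.76 and 6.08 in the other 0 hr controls, and Ifit3, its partner in that complex, was at 11.53 against 8.96 and 9.07. A near-identical neighbour, Ifit3b, may share signal with Ifit3. Mx1, a gene of the dynamin-like GTPase family, was at 6.87 in the array and at 5.08 in each of the other 2. Rsad2 (viperin), which makes a chain-terminating nucleotide, was at 7.78 against 6.02 and 6.23. Oasl2, a member of the oligoadenylate synthetase family, was at 8.67 against 6.94 and 6.92, and the GTPase Mx2 at 6.87 against 5.59 and 5.47. Each of these values lay above all 17 other arrays of its gene.

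Regulators and sensors were higher in that array too. Irf7, the transcription factor that amplifies type I interferon, was at 7.20 in the array, against 6.14 and 6.17 in the other 0 hr controls. Zbp1, a sensor of Z-form nucleic acids, was at 7.78 against 6.66 and 6.48. Not every gene shared the pattern. Bst2 (tetherin), which holds budding virions at the cell surface, was at 7.29 against 8.32 and 8.39, and the chemokine gene Cxcl9 at 5.70 against 5.91 and 6.19. Oas2, Oas3, Oasl1 and Samd9l lay within 0.07 of the mean of the other 0 hr controls in either direction. The array also had higher summed marker levels than both other 0 hr controls for endothelial cells (6646 against 4870 and 5375), B and plasma cells (726 against 423 and 464) and T and NK cells (1565 against 1098 and 1122). The same held for plasmacytoid dendritic cells (1305 against 1086 and 1134), other dendritic cells (811 against 702 and 716), macrophages (2034 against 1601 and 1805), neutrophils (1388 against 773 and 1084), alveolar type 2 cells (22464 against 17498 and 17771) and fibroblasts (4767 against 3836 and 3982). Its club cell sum was higher as well, at 35377 against 34709 and 35248. For cardiac muscle its sum lay between the others (10255 against 6589 and 12196). Its sum for ciliated cells was lower, at 5122 against 7609 and 8484. The part of these cell types in the pattern was not tested.

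Levels before injury did not pass the test between genotypes for any gene of the set. At 0 hr, 0 of 37 genes differed between Cebpa d/d and control arrays in a limma fit across all genes (Benjamini-Hochberg adjusted p under 0.05), where 0.336% of all genes did, and 2 of the 37 had an unadjusted p under 0.05. Here and below, the share of all genes at the unadjusted threshold is not given. Counts at that threshold are therefore not read as a result about the set. With all arrays 7 of the 37 differences were positive, with a median of -0.17, against 0.02 for all genes. When the array labelled control 0 hr replicate 1 was left out, 25 were positive, with a median of 0.08, and 0 passed (0.767% of all genes did, and 5 of the 37 had an unadjusted p under 0.05). The sign of the set's median at 0 hr thus rested on that array. The difference of Ifit1 was -0.16 ± 0.58 (SE, limma adjusted p = 0.973) with it and 0.88 ± 0.31 (adjusted p = 0.286) without it. Mx2 had the largest negative difference with all arrays, -0.58 ± 0.31, then Rtp4 at -0.53 ± 0.37, while Cxcl9 (0.34 ± 0.23) and Psmb8 (0.14 ± 0.19) had the largest positive ones. Once that array was left out, Bst2 (-0.72 ± 0.26) and Usp18 (-0.29 ± 0.27) were the most negative, and Ifit1 and Ifit3 (0.52 ± 0.32) the most positive. Cardiac muscle markers, of which 8 were measured, passed as higher in Cebpa d/d arrays at 0 hr for 5 (summed level 17697 to 26443 in Cebpa d/d and 6589 to 12196 in control arrays). The 5 measured markers listed for plasmacytoid dendritic cells, a cell type known for secreting type I interferon, were Siglech, Ccr9, Tcf4, Cox6a2 and Ly6d. Their summed level was 1445 to 2180 in Cebpa d/d arrays at 0 hr and 1086 to 1305 in control arrays, and 1 of 5 passed. Cebpa d/d 0 hr replicate 1 had the highest sum of both lists, at 2180 and 26443. Among the 0 hr controls, replicate 1 had the highest plasmacytoid sum, 1305, but not the highest cardiac muscle sum (10255 against 12196). Whether the plasmacytoid sum reflects that cell type alone was not tested. The part of these markers in the values of the set was not tested.

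**Figure D2:**
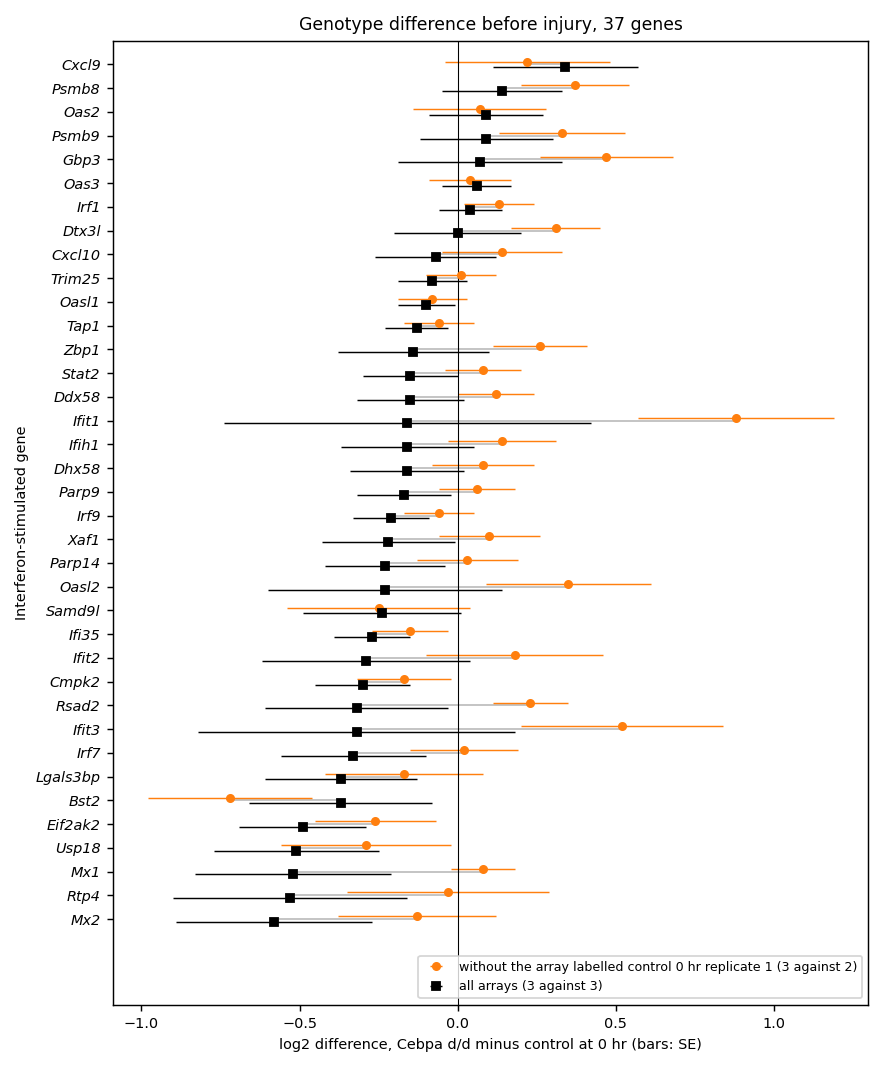
Each row is 1 of the 37 genes and the x axis is the log2 difference at 0 hr, Cebpa d/d minus control, with SE bars. Squares use all arrays and have a median of -0.17, and circles leave out the array labelled control 0 hr replicate 1 and have a median of 0.08.

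After injury most differences between genotypes were positive, but no single gene passed. At 3 hr 28 of 37 differences were positive (44% of all genes were), with a median of 0.09 against -0.02 for all genes, and 0 passed (0.015% of all genes did, and 1 of the 37 had an unadjusted p under 0.05). At 72 hr 31 of 37 were positive (56.8% of all genes were), with a median of 0.13 against 0.02 for all genes, and 0 passed (0.0702% of all genes did, 1 of the 37 at an unadjusted p under 0.05). Over the mean of the 3 times 20 were positive, with a median of 0.01, and 0 passed (0.306% of all genes did, 1 of the 37 at an unadjusted p under 0.05). With the array labelled control 0 hr replicate 1 left out, the mean over times was positive for 30, with a median of 0.08, and again 0 passed (1.01% of all genes did, 6 of the 37 at an unadjusted p under 0.05). Ifit1 had the largest positive difference at both later times, 0.47 ± 0.58 at 3 hr and 0.62 ± 0.58 at 72 hr (limma adjusted p = 0.986 and 0.892), followed by Ifit3 at 3 hr (0.42 ± 0.50) and Parp14 at 72 hr (0.36 ± 0.19). Samd9l (-0.29 ± 0.25) and Tap1 (-0.09 ± 0.10) were the most negative at 3 hr, and Lgals3bp (-0.75 ± 0.24, adjusted p = 0.590) and Ifi35 (-0.23 ± 0.12) at 72 hr. Over the mean of the 3 times Lgals3bp (-0.31 ± 0.14) and Mx1 (-0.21 ± 0.18) were the most negative, and Ifit1 (0.31 ± 0.34) and Psmb8 (0.19 ± 0.11) the most positive. When the array labelled control 0 hr replicate 1 was left out of that mean, Mx1 stood at -0.01 ± 0.05. Lgals3bp (-0.24 ± 0.13) and Bst2 (-0.16 ± 0.14) were then the most negative, and Ifit1 (0.66 ± 0.17) and Ifit3 (0.43 ± 0.17) the most positive.

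The Ifit1 values behind these differences were as follows. Ifit1 in Cebpa d/d arrays had log2 levels of 7.11, 6.88 and 6.42 at 0 hr, 5.86, 6.69 and 6.23 at 3 hr, and 6.14, 6.59 and 6.96 at 72 hr. Ifit1 in control arrays had 9.04, 5.76 and 6.08 at 0 hr, 5.64, 5.88 and 5.88 at 3 hr, and 5.75, 5.45 and 6.62 at 72 hr. Genotypes overlapped at 3 and at 72 hr, and at 0 hr the Cebpa d/d arrays lay above the other 2 controls but below the array labelled control 0 hr replicate 1. Over the mean of the 3 times without that array, Ifit1 had the difference nearest to the threshold, 0.66 ± 0.17 (limma adjusted p = 0.0894). It passed at 0.73 (adjusted p = 0.0494) when Cebpa d/d 72 hr replicate 1 was left out too.

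The transcription factor genes Irf7, Irf9 and Stat2 differed little between groups outside that array. Irf7 in Cebpa d/d arrays had log2 levels of 6.51, 6.02 and 5.99 at 0 hr, 6.11, 6.5 and 6.20 at 3 hr, and 6.10, 6.09 and 6.52 at 72 hr. Irf7 in control arrays had 7.20, 6.14 and 6.17 at 0 hr, 6.15, 6.23 and 6.48 at 3 hr, and 6.11, 6.12 and 6.15 at 72 hr. Irf7 in the 17 arrays other than the array labelled control 0 hr replicate 1 ran from 5.99 to 6.52, and groups overlapped in every comparison.

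Irf9 in Cebpa d/d arrays had log2 levels of 7.09, 7.06 and 6.91 at 0 hr, 7.09, 7.07 and 6.98 at 3 hr, and 6.97, 6.96 and 6.96 at 72 hr. Irf9 in control arrays had 7.51, 7.02 and 7.14 at 0 hr, 6.74, 7.05 and 6.99 at 3 hr, and 6.73, 6.97 and 6.99 at 72 hr. Irf9, the DNA-binding part of the complex, was lower at 72 hr than at 0 hr in all 3 control arrays, but did not pass (-0.33 ± 0.12, limma adjusted p = 0.103, and -0.19 ± 0.11, adjusted p = 0.331, with the array labelled control 0 hr replicate 1 left out).

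Stat2 in Cebpa d/d arrays had log2 levels of 7.30, 7.13 and 7.22 at 0 hr, 7.20, 7.19 and 6.98 at 3 hr, and 6.80, 7.12 and 7.19 at 72 hr. Stat2 in control arrays had 7.81, 7.08 and 7.20 at 0 hr, 6.99, 7.17 and 7.16 at 3 hr, and 7.11, 6.93 and 7.0 at 72 hr. Stat2 groups overlapped in every comparison, and its values outside the array labelled control 0 hr replicate 1 ran from 6.8 to 7.3. Irf3, the factor that starts interferon transcription after viral sensing, was at 7.6 to 7.98 in Cebpa d/d arrays and at 7.61 to 8.27 in control arrays, and its differences did not pass in any comparison.

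Irf1 in Cebpa d/d arrays had log2 levels of 7.61, 7.55 and 7.39 at 0 hr, 7.30, 7.38 and 7.35 at 3 hr, and 7.22, 7.24 and 7.11 at 72 hr. Irf1 in control arrays had 7.65, 7.30 and 7.47 at 0 hr, 7.19, 7.35 and 7.05 at 3 hr, and 7.15, 6.98 and 7.20 at 72 hr. Irf1, the interferon gamma-induced activator, fell at 72 hr relative to 0 hr in controls by 0.36 ± 0.10 (limma adjusted p = 0.0417), with no overlap between the times. The value was -0.27 ± 0.11 (adjusted p = 0.138) when the array labelled control 0 hr replicate 1 was left out. Irf1 values at 72 hr in Cebpa d/d arrays also lay below all 0 hr values, without passing (-0.33 ± 0.10, adjusted p = 0.0814, and 0.0558 with that array left out). With the mean of all its probe sets and all arrays, the fall passed in both genotypes. It was -0.45 in Cebpa d/d (adjusted p = 0.0162) and -0.52 in control arrays (adjusted p = 0.00585). The Cebpa d/d fall also passed with array weights (-0.35, adjusted p = 0.0184). In controls the call was made in 11 of 27 alternative fits. The test of the difference between genotypes in that interval did not pass (0.04 ± 0.14, adjusted p = 1, and -0.05 ± 0.14, adjusted p = 0.979, with that array left out).

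In the first 3 hr after naphthalene most genes of the set were measured lower. Among Cebpa d/d arrays 27 of 37 differences between 3 and 0 hr were negative, with a median of -0.20 against -0.02 for all genes, and 0 passed (4.38% of all genes did, and 6 of the 37 had an unadjusted p under 0.05). In control arrays 33 were negative, with a median of -0.44 against 0.03 for all genes, and 3 fell and 0 rose (1.62% of all genes fell), with 21 at an unadjusted p under 0.05 (the share of all genes at that unadjusted threshold is not given here). The 3 were Rtp4, a chaperone for membrane receptors, by 1.46 ± 0.37 (limma adjusted p = 0.0428), Parp14, an ADP-ribosyltransferase, by 0.77 ± 0.19 (adjusted p = 0.0376) and the immunoproteasome subunit gene Psmb9 by 0.77 ± 0.21 (adjusted p = 0.04998). None of these 3 passed when the array labelled control 0 hr replicate 1 was left out: the values were -0.96 ± 0.32 for Rtp4 (adjusted p = 0.151), -0.50 ± 0.16 for Parp14 (adjusted p = 0.127) and -0.54 ± 0.20 for Psmb9 (adjusted p = 0.184). The set's median was then -0.19 with 30 negative, 0 passed (1.55% of all genes did), and 9 had an unadjusted p under 0.05. All 3 calls were also lost without control 0 hr replicate 3 or control 3 hr replicate 3, while 9 genes passed without control 0 hr replicate 2 (the share of all genes in that fit is not given here). Ifit3 had as large a difference in controls as Rtp4 with a wider error (-1.46 ± 0.50, adjusted p = 0.112), and Cxcl9 (0.21 ± 0.23) and Cxcl10 (0.07 ± 0.19) were the most positive. With the array labelled control 0 hr replicate 1 left out, Ifit3 stood at -0.62 ± 0.32 (adjusted p = 0.366), Rtp4 and Ifit2 (-0.73 ± 0.28) were the most negative, and Cxcl10 (0.28 ± 0.19) and Irf7 (0.14 ± 0.17) the most positive.

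By role, the first 3 hr looked as follows. All 3 antigen-processing genes and all 5 genes of ubiquitin-like and ADP-ribosylation proteins had negative differences in both genotypes, also with the array labelled control 0 hr replicate 1 left out. The 3 antigen-processing genes, Psmb8, Psmb9 and the peptide transporter gene Tap1, had a median of -0.50 in Cebpa d/d and of -0.56 in control arrays (-0.32 with that array left out). Of the 9 IFIT and translation-blocking effectors 7 were negative in Cebpa d/d (median -0.49) and 7 in control arrays (median -0.70, or -0.44 with that array left out). Of the 10 other antiviral effectors 6 were negative in Cebpa d/d (median -0.11) and 10 in control arrays (median -0.55, or -0.26 with that array left out). The 4 transcription factors stood at a median of -0.03 in Cebpa d/d and of -0.27 in control arrays (-0.10 with that array left out), and the 2 chemokines at 0.15 in Cebpa d/d and 0.14 in control arrays (0.18 with that array left out). In Cebpa d/d, Gbp3 (-0.87 ± 0.26) and Ifit3 (-0.71 ± 0.50) were the most negative, and Mx2 (0.38 ± 0.31) and Bst2 (0.36 ± 0.29) the most positive. Marker sums of other cell types are set beside these values. At 3 hr they lay below the 0 hr sums without overlap in both genotypes for alveolar type 2 cells, endothelial cells, plasmacytoid dendritic cells and cardiac muscle. For alveolar type 2 cells the sum in Cebpa d/d arrays was 17685 to 19649 at 3 hr and 19651 to 20831 at 0 hr. In control arrays it was 14773 to 16119 at 3 hr and 17498 to 22464 at 0 hr. For endothelial cells the sum was 3523 to 4276 at 3 hr and 5164 to 6304 at 0 hr in Cebpa d/d arrays, where 1 of 8 markers fell, and 3331 to 4743 at 3 hr and 4870 to 6646 at 0 hr in control arrays, where 2 fell. For plasmacytoid dendritic cells it was 906 to 1012 at 3 hr and 1445 to 2180 at 0 hr in Cebpa d/d arrays, where 1 of 5 fell, and 859 to 1012 at 3 hr and 1086 to 1305 at 0 hr in control arrays, where 0 fell. Cardiac muscle markers had sums of 5590 to 7346 at 3 hr and 17697 to 26443 at 0 hr in Cebpa d/d arrays, where 8 of 8 fell, and of 5078 to 5720 at 3 hr and 6589 to 12196 at 0 hr in control arrays, where 0 fell. T and NK cell sums were 930 to 1040 at 3 hr and 1059 to 1516 at 0 hr in Cebpa d/d arrays, and 931 to 1130 at 3 hr and 1098 to 1565 at 0 hr in control arrays, with overlap in control arrays and with 0 of 13 falling in either genotype. Over all genes 1.72% fell in Cebpa d/d and 1.62% in control arrays. The part of these cell types in the lower values of the set was not tested.

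Rtp4 in Cebpa d/d arrays had log2 levels of 8.48, 8.75 and 8.22 at 0 hr, 7.42, 8.30 and 7.75 at 3 hr, and 8.45, 8.70 and 9.13 at 72 hr. Rtp4 in control arrays had 10, 8.06 and 8.95 at 0 hr, 7.66, 7.88 and 7.10 at 3 hr, and 8.14, 8.74 and 9.0 at 72 hr. Rtp4 at 3 hr lay below all 0 hr values in controls, and overlapped with 0 hr in Cebpa d/d arrays.

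Parp14 in Cebpa d/d arrays had log2 levels of 7.88, 8.10 and 7.66 at 0 hr, 7.49, 7.76 and 7.43 at 3 hr, and 7.74, 7.84 and 7.96 at 72 hr. Parp14 in control arrays had 8.64, 7.63 and 8.06 at 0 hr, 7.27, 7.59 and 7.18 at 3 hr, and 7.43, 7.43 and 7.60 at 72 hr. The highest Parp14 value at 3 hr in controls, 7.59, was just below the lowest at 0 hr, 7.63.

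Psmb9 in Cebpa d/d arrays had log2 levels of 9.79, 9.41 and 9.05 at 0 hr, 8.78, 8.88 and 8.73 at 3 hr, and 9.08, 9.16 and 9.52 at 72 hr. Psmb9 in control arrays had 9.80, 8.99 and 9.18 at 0 hr, 8.32, 8.60 and 8.73 at 3 hr, and 8.97, 8.81 and 9.32 at 72 hr. Psmb9 was lower at 3 hr than at 0 hr without overlap in both genotypes, with a difference of -0.62 ± 0.21 in Cebpa d/d arrays that did not pass (limma adjusted p = 0.113).

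Its partner subunit Psmb8 showed the same order. Psmb8 in Cebpa d/d arrays had log2 levels of 9.03, 8.96 and 8.51 at 0 hr, 8.35, 8.49 and 8.17 at 3 hr, and 8.59, 8.53 and 8.81 at 72 hr. Psmb8 in control arrays had 9.18, 8.39 and 8.53 at 0 hr, 8.14, 8.17 and 8.10 at 3 hr, and 8.23, 8.23 and 8.75 at 72 hr. All 3 hr values of Psmb8 lay below all 0 hr values in both genotypes, and neither difference passed (-0.50 ± 0.19 in Cebpa d/d, limma adjusted p = 0.167, and -0.56 ± 0.19 in control arrays, adjusted p = 0.106). With the array labelled control 0 hr replicate 1 left out the control value was -0.32 ± 0.17 (adjusted p = 0.367).

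Gbp3, a guanylate-binding GTPase, had the most negative difference at 3 hr in Cebpa d/d arrays. Gbp3 in Cebpa d/d arrays had log2 levels of 7.20, 7.49 and 7.06 at 0 hr, 6.10, 6.41 and 6.61 at 3 hr, and 6.88, 6.51 and 7.03 at 72 hr. Gbp3 in control arrays had 7.97, 6.72 and 6.84 at 0 hr, 6.10, 6.29 and 6.24 at 3 hr, and 6.76, 6.10 and 6.81 at 72 hr. The 3 hr values lay below the 0 hr values without overlap in both genotypes. The difference in Cebpa d/d was -0.87 ± 0.26 (limma adjusted p = 0.0765). It passed when the fit left out the array labelled control 0 hr replicate 1, which lowers the shared spread (SE 0.18, adjusted p = 0.0113). With that array left out, Gbp3 and Parp9 were the 2 genes of the set that fell in Cebpa d/d from 0 to 3 hr (2.14% of all genes fell). The Gbp3 difference in controls was -0.96 ± 0.26 (adjusted p = 0.0544) with that array and -0.57 ± 0.21 (adjusted p = 0.178) without it.

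Parp9 is a macrodomain protein that pairs with the ubiquitin ligase Dtx3l. Parp9 in Cebpa d/d arrays had log2 levels of 7.43, 7.76 and 7.46 at 0 hr, 7.23, 7.16 and 7.10 at 3 hr, and 7.72, 7.52 and 7.52 at 72 hr. Parp9 in control arrays had 8.18, 7.41 and 7.57 at 0 hr, 7.10, 7.34 and 7.30 at 3 hr, and 7.39, 7.34 and 7.52 at 72 hr. The 3 hr values lay below the 0 hr values without overlap in both genotypes, and the decrease in Cebpa d/d passed when the array labelled control 0 hr replicate 1 was left out (-0.38 ± 0.10, limma adjusted p = 0.0425). So did the later increase from 3 to 72 hr (0.42 ± 0.10, adjusted p = 0.0183). With all arrays neither passed (adjusted p = 0.188 and 0.101).

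The RNA sensors Ddx58 and Ifih1 were also lowest at 3 hr in Cebpa d/d. Ddx58 in Cebpa d/d arrays had log2 levels of 8.49, 8.82 and 8.50 at 0 hr, 8.22, 8.22 and 8.25 at 3 hr, and 8.66, 8.70 and 8.81 at 72 hr. Ddx58 in control arrays had 9.28, 8.49 and 8.47 at 0 hr, 8.19, 8.34 and 8.23 at 3 hr, and 8.34, 8.50 and 8.77 at 72 hr. Ddx58 (RIG-I), which senses short RNA with a triphosphate end, was at 8.22 to 8.25 at 3 hr, below every other Cebpa d/d value. Its increase from 3 to 72 hr in Cebpa d/d was 0.49 ± 0.17 (limma adjusted p = 0.0831) with all arrays and passed without the array labelled control 0 hr replicate 1 (0.49 ± 0.11, adjusted p = 0.0103).

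Ifih1 in Cebpa d/d arrays had log2 levels of 8.52, 8.87 and 8.43 at 0 hr, 8.13, 8.13 and 8.15 at 3 hr, and 8.74, 8.42 and 8.48 at 72 hr. Ifih1 in control arrays had 9.36, 8.26 and 8.69 at 0 hr, 8.19, 8.36 and 7.80 at 3 hr, and 8.13, 8.26 and 8.38 at 72 hr. Ifih1 (MDA5), which senses long RNA, was lower at 3 hr than at 0 hr without overlap in Cebpa d/d and with overlap in control arrays. Neither difference passed (-0.47 ± 0.21, limma adjusted p = 0.243, and -0.65 ± 0.21, adjusted p = 0.0884). The control value was -0.36 ± 0.17 (adjusted p = 0.314) when the array labelled control 0 hr replicate 1 was left out.

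The changes that held up best came at 72 hr. From 0 to 72 hr 2 genes rose and 0 fell in Cebpa d/d arrays (3.39% of all genes rose), namely Lgals3bp by 1.09 ± 0.24 (limma adjusted p = 0.0120) and Ifi35 by 0.43 ± 0.12 (adjusted p = 0.0478). Of the 37 differences 17 were positive, with a median of -0.03 against -0.02 for all genes, and Usp18 (0.77 ± 0.26, adjusted p = 0.105) came next after Lgals3bp, with Gbp3 (-0.44 ± 0.26) and Irf1 the most negative. In control arrays Lgals3bp rose by 1.46 ± 0.24 (adjusted p = 0.00158) and Irf1 fell, as above, where 7.15% of all genes passed in either direction. Only 4 of the 37 differences were positive there, with a median of -0.29 against -0.02 for all genes, and Ifit1 (-1.02 ± 0.58) and Mx2 (-0.74 ± 0.31) were the most negative. With the array labelled control 0 hr replicate 1 left out, 16 were positive, with a median of -0.06, and the 2 genes that passed in controls were Lgals3bp (1.66 ± 0.25, adjusted p = 0.00170) and Ifi35 (0.52 ± 0.12, adjusted p = 0.0182), both higher (5.2% of all genes rose). Ifit1 was then at 0.02 ± 0.31 and Mx2 at -0.30 ± 0.25, and Bst2 (-0.49 ± 0.26) and Parp14 (-0.36 ± 0.16) were the most negative.

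From 3 to 72 hr, 2 genes rose and 0 fell in Cebpa d/d arrays (4.88% of all genes rose): Lgals3bp by 0.86 ± 0.24 (limma adjusted p = 0.0322) and Usp18 by 0.99 ± 0.26 (adjusted p = 0.0247). In control arrays 3 rose and 0 fell (11.2% of all genes rose): Lgals3bp by 1.80 ± 0.24 (adjusted p = 0.000116), Ifi35 by 0.80 ± 0.12 (adjusted p = 0.000337) and Usp18 by 1.05 ± 0.26 (adjusted p = 0.00995). The median of the set was 0.24 in Cebpa d/d, with 27 of 37 positive, against -0.00 for all genes, and 0.14 in control arrays, with 23 positive, against -0.07. These 2 comparisons share no arrays, and 23 genes were positive in both, 10 negative in both and 4 opposite. The 10 genes negative in both included all 4 transcription factors (median -0.08 in Cebpa d/d and -0.09 in control arrays) and both chemokines. All 5 genes of ubiquitin-like and ADP-ribosylation proteins were positive in both (median 0.29 in Cebpa d/d and 0.18 in control arrays). The share of the set that rose was close to that of all genes in both genotypes. Across the 37 genes, which are not independent of each other, the 2 sets of differences had a Pearson r of 0.86. When the array labelled control 0 hr replicate 1 was left out, 4 genes rose in Cebpa d/d (5.59% of all genes rose) and 5 in control arrays (12%). The genes added were Ddx58 and Parp9 in Cebpa d/d, and Ifit3 (0.97 ± 0.29, adjusted p = 0.0261) and Rtp4 (1.08 ± 0.29, adjusted p = 0.0162) in control arrays. That array belongs to neither time, so its removal changed the shared spread and not the differences.

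**Figure D3:**
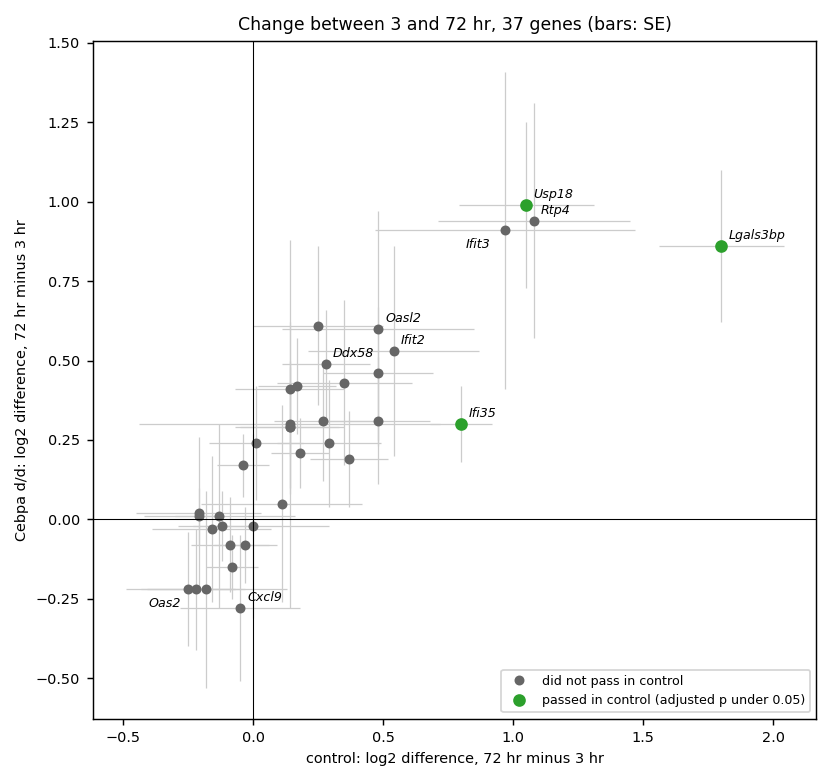
Each point is 1 of the 37 genes, with the log2 difference between 72 and 3 hr in Cebpa d/d arrays on the y axis and in control arrays on the x axis, and SE bars. Green points, Lgals3bp, Usp18 and Ifi35, passed in control arrays, and 23 points lie in the quadrant where both differences are positive.

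Lgals3bp encodes a secreted glycoprotein that binds galectin-3. Lgals3bp in Cebpa d/d arrays had log2 levels of 7.03, 6.80 and 7.12 at 0 hr, 7.20, 7.23 and 7.21 at 3 hr, and 7.37, 8.53 and 8.32 at 72 hr. Lgals3bp in control arrays had 7.75, 7.16 and 7.15 at 0 hr, 6.87, 7.21 and 6.97 at 3 hr, and 8.76, 9.13 and 8.56 at 72 hr. All 3 control values at 72 hr lay above every earlier control value, and in Cebpa d/d arrays replicate 1 at 72 hr stayed near the 3 hr values while the other 2 exceeded every 3 hr value by over 1 log2 unit. The 72 hr levels averaged 8.07 ± 0.62 in Cebpa d/d and 8.82 ± 0.29 in control arrays (SD, n = 3 each), with no overlap between genotypes, but the genotype difference did not pass.

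Lgals3bp passed in controls in all 27 alternative fits for both intervals, with differences of 1.31 to 1.66 from 0 hr and of 1.65 to 1.93 from 3 hr. In Cebpa d/d the call from 0 hr was lost without Cebpa d/d 0 hr replicate 2 (1.0, limma adjusted p = 0.0566), Cebpa d/d 72 hr replicate 2 (0.86, adjusted p = 0.0840) or Cebpa d/d 72 hr replicate 3 (0.96, adjusted p = 0.0699). The call from 3 hr was lost without any 1 of the Cebpa d/d 3 hr arrays (highest adjusted p = 0.0945) or without Cebpa d/d 72 hr replicate 2 (0.63, adjusted p = 0.172) or replicate 3 (0.73, adjusted p = 0.140). Both Cebpa d/d calls were also lost in a fit on only the groups compared (adjusted p = 0.0677 from 0 hr and 0.0952 from 3 hr). Macrophage markers, of which 11 of 12 were measured, moved with Lgals3bp. Before injury their summed level ran between 1878 and 2087 in Cebpa d/d and between 1601 and 2034 in control arrays. It ran between 1822 and 2577 in Cebpa d/d and between 1768 and 2574 in control arrays at 3 hr. By 72 hr it ran between 1939 and 3113 in Cebpa d/d and between 2946 and 4246 in control arrays. Cebpa d/d 72 hr replicate 1, low in Lgals3bp, had the lowest macrophage sum of the 72 hr arrays, 1939, and the highest club cell sum, 33090 against 22884 to 24975 in the other 5. From 3 to 72 hr, 1 of the 11 macrophage markers rose in Cebpa d/d arrays and 6 rose in control arrays, as did 7 of 9 ciliated, 5 of 8 alveolar type 2 and 4 of 7 fibroblast markers in control arrays, against 4.88% of all genes in Cebpa d/d and 11.2% in control arrays. The lowest macrophage marker stood at a log2 level of 5.8 to 6.02 over the 6 groups. The part of these cells in the Lgals3bp values was not tested. With a sex term, Lgals3bp still passed in controls (1.79 from 3 hr, adjusted p = 0.000824), but not from 3 hr in Cebpa d/d (0.85, adjusted p = 0.0911).

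Ifi35 encodes a leucine-zipper protein that forms a complex with Nmi. Ifi35 in Cebpa d/d arrays had log2 levels of 7.50, 7.61 and 7.22 at 0 hr, 7.57, 7.64 and 7.51 at 3 hr, and 7.70, 7.87 and 8.05 at 72 hr. Ifi35 in control arrays had 7.94, 7.65 and 7.54 at 0 hr, 7.21, 7.39 and 7.34 at 3 hr, and 8.15, 8.02 and 8.16 at 72 hr. The 72 hr values lay above all 0 and 3 hr values in both genotypes. The increase from 3 hr in controls passed in all 27 alternative fits, at 0.74 to 0.84, and with a sex term it was 0.79 (limma adjusted p = 0.00211). The increase from 0 hr in Cebpa d/d passed in 9 of the 27 and in 5 of the 18 that left out 1 array, being smallest without Cebpa d/d 0 hr replicate 3 (0.32, adjusted p = 0.198).

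Usp18 removes Isg15 from proteins and restrains the type I interferon receptor. Usp18 in Cebpa d/d arrays had log2 levels of 7.32, 6.93 and 7.06 at 0 hr, 6.76, 7.47 and 6.42 at 3 hr, and 7.83, 7.80 and 7.98 at 72 hr. Usp18 in control arrays had 8.03, 7.34 and 7.45 at 0 hr, 7.27, 6.61 and 6.20 at 3 hr, and 7.66, 7.70 and 7.85 at 72 hr. The 72 hr arrays lay close together, at 7.66 to 7.98, and above every 3 hr array in both genotypes, while the 3 hr arrays ran from 6.20 to 7.47. The array labelled control 0 hr replicate 1 was the highest of all, at 8.03. The increase from 3 hr in controls passed in 25 of 27 alternative fits. It was lost without control 3 hr replicate 3 (0.80, limma adjusted p = 0.0613) and with a sex term (0.90, adjusted p = 0.0503). The Usp18 increase in Cebpa d/d passed in 22 of 27. The losses were without Cebpa d/d 3 hr replicate 1 (0.93, adjusted p = 0.0880) or replicate 3 (0.76, adjusted p = 0.133), without Cebpa d/d 72 hr replicate 2 (1.02, adjusted p = 0.0692) or replicate 3 (0.93, adjusted p = 0.0914), and with a sex term (0.85, adjusted p = 0.109).

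Ifit3 in Cebpa d/d arrays had log2 levels of 9.66, 9.67 and 9.26 at 0 hr, 8.45, 9.34 and 8.67 at 3 hr, and 9.02, 9.93 and 10.24 at 72 hr. Ifit3 in control arrays had 11.53, 8.96 and 9.07 at 0 hr, 8.50, 8.14 and 8.55 at 3 hr, and 9.05, 9.18 and 9.88 at 72 hr. Ifit3 at 72 hr lay above all 3 hr controls and overlapped with 3 hr in Cebpa d/d, where the difference was 0.91 ± 0.50 (limma adjusted p = 0.326).

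The chemokine Cxcl10, which draws T cells, did not follow most of the others. Cxcl10 in Cebpa d/d arrays had log2 levels of 5.54, 5.59 and 5.25 at 0 hr, 5.67, 5.55 and 6.20 at 3 hr, and 5.34, 5.64 and 5.77 at 72 hr. Cxcl10 in control arrays had 5.94, 5.48 and 5.16 at 0 hr, 5.64, 5.77 and 5.38 at 3 hr, and 5.34, 5.29 and 5.50 at 72 hr. Its groups overlapped in every comparison and no difference passed. From 3 to 72 hr it was among the most negative in control arrays (-0.22 ± 0.19), beside Oas2 (-0.25 ± 0.18), and in Cebpa d/d Cxcl9 (-0.28 ± 0.23) and Mx2 (-0.22 ± 0.31) were the most negative.

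**Figure D4:**
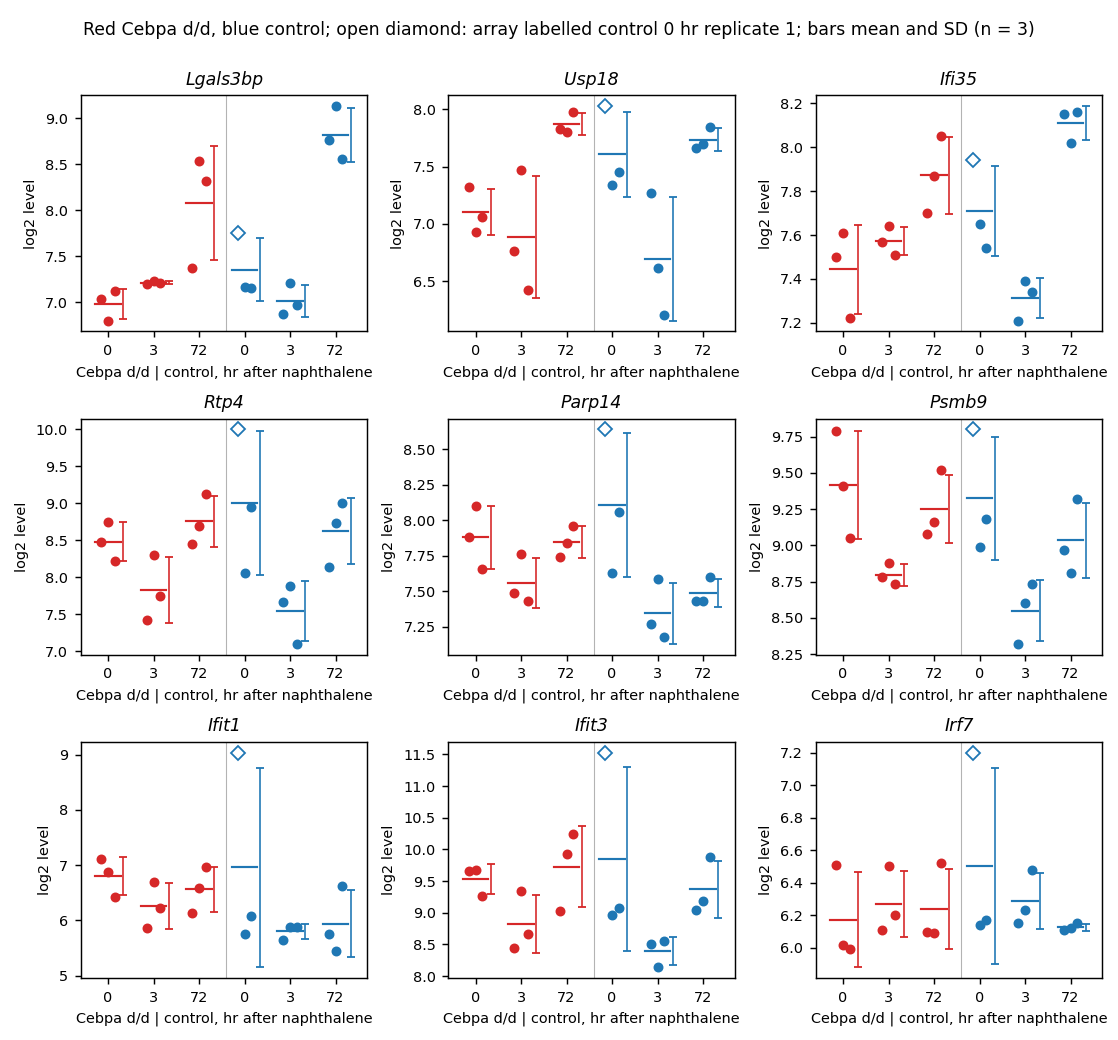
Points are log2 levels of 9 genes in each array, with Cebpa d/d at 0, 3 and 72 hr left of control at the same times, horizontal lines for group means and bars for SD (n = 3). Lgals3bp, Usp18 and Ifi35 are higher at 72 than at 3 hr in every array of both genotypes, and the open diamond, the array labelled control 0 hr replicate 1, is the highest point for 7 of the 9 genes.

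The time course of the set was not shown to differ between genotypes. For the interval from 0 to 3 hr, 0 of 37 genes passed the test of the difference between genotypes (0% of all genes passed, and 3 of the 37 had an unadjusted p under 0.05), with a median of 0.23 and 33 positive with all arrays. Once the array labelled control 0 hr replicate 1 was left out, the median was -0.04 with 16 positive, and 0 passed (0% of all genes). For the interval from 0 to 72 hr, 0 passed (0.0953% of all genes did, 2 of the 37 at an unadjusted p under 0.05), with a median of 0.31 and 33 positive. Without the array it was 0.07 with 20 positive, and 0 passed (0.015% of all genes). Both intervals share the 0 hr arrays. The median and the share of positive differences over all genes are not given here for these intervals. Mx2 had the largest positive values with all arrays, 0.94 ± 0.44 and 0.90 ± 0.44 (limma adjusted p = 0.716 and 1), and Cxcl9 the largest negative ones, -0.25 ± 0.33 and -0.48 ± 0.33. Next came Rtp4 (0.80 ± 0.53) and Oas2 (-0.09 ± 0.26) for the first interval, and Ifit1 (0.78 ± 0.82) and Lgals3bp (-0.38 ± 0.33) for the second. Those values moved with the array labelled control 0 hr replicate 1. When it was left out, Mx2 stood at 0.49 ± 0.33 and 0.46 ± 0.33, and Ifit1 at -0.42 ± 0.42 and -0.26 ± 0.42. For the first interval Bst2 (0.85 ± 0.35) and Eif2ak2 (0.54 ± 0.26) were then the most positive and Ifit1 and Zbp1 (-0.34 ± 0.20) the most negative. For the second they were Bst2 (0.83 ± 0.35) and Mx2 on the positive side, and Lgals3bp (-0.57 ± 0.33) and Cxcl9 (-0.36 ± 0.34) on the negative side.

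Genes of the wider interferon pathway, taken from lists of ligands, receptors, sensors, inhibitors and other induced genes, were read in the same fits. Their values with a sex term are not given here. All arrays at 72 hr looked female, against 1 of 3 in each earlier group. Changes of these genes at 72 hr can therefore not be fully told apart from sex. Among all genes, 2.66% rose and 1.72% fell from 0 to 3 hr in Cebpa d/d, and 1.88% rose and 1.62% fell in controls. From 3 to 72 hr 4.88% rose and 3.67% fell in Cebpa d/d, and 11.2% rose and 8.57% fell in controls, and from 0 to 72 hr 2.2% fell in controls. Of 7 measured interferon genes Ifnk, the keratinocyte interferon, fell from 0 to 72 hr in controls by 1.13 ± 0.26 (limma adjusted p = 0.0137, and -1.34 ± 0.27, adjusted p = 0.00878, with the array labelled control 0 hr replicate 1 left out) and 0 rose, while Ifnb1 stayed between 5.02 and 5.51 and Ifng between 5.63 and 6.18 over the 18 arrays. Of 10 measured receptors and signalling genes, 3 rose and 1 fell from 3 to 72 hr in controls. The receptor chains Ifnar1 and Ifngr2 rose by 0.47 ± 0.13 (adjusted p = 0.0216) and 0.50 ± 0.15 (adjusted p = 0.0279), the kinase gene Jak2 rose by 0.46 ± 0.14 (adjusted p = 0.0327), and Stat3, which relays interleukin-6 family signals, fell by 0.45 ± 0.12 (adjusted p = 0.0188). Stat3 in Cebpa d/d arrays was the 1 of the 10 that passed, and it fell over that interval too (-0.50 ± 0.12, adjusted p = 0.0190). Some calls were added in controls when the array labelled control 0 hr replicate 1 was left out. Ifnk then also fell from 0 to 3 hr (-1.16 ± 0.27, adjusted p = 0.0457), where 1.55% of all genes passed. Ifnl2 fell from 3 to 72 hr (-0.32 ± 0.10, adjusted p = 0.0288). From 0 to 72 hr Ifnar1 (adjusted p = 0.0210), Ifngr2 (0.0235) and Jak2 (0.0356) rose, where 5.2% of all genes rose.

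Of 14 measured genes of nucleic acid sensing, Tbk1, the kinase that activates Irf3, was the 1 that passed from 0 to 3 hr, and it rose in both genotypes, by 0.42 ± 0.09 in Cebpa d/d (limma adjusted p = 0.00948) and by 0.37 ± 0.09 in control arrays (adjusted p = 0.0284, and 0.41 ± 0.10, adjusted p = 0.0472, with the array labelled control 0 hr replicate 1 left out). From 3 to 72 hr Tbk1 fell by 0.46 ± 0.09 in Cebpa d/d (adjusted p = 0.00345) and by 0.34 ± 0.09 in control arrays (adjusted p = 0.0121). Tlr3, the endosomal receptor for double-stranded RNA, rose by 0.67 ± 0.19 in Cebpa d/d (adjusted p = 0.0348) and by 0.89 ± 0.19 in control arrays (adjusted p = 0.00376), where Tlr7 (0.44 ± 0.15) and Ikbke (0.39 ± 0.11) rose too. From 0 to 72 hr Tlr7 rose in controls by 0.63 ± 0.15 (adjusted p = 0.0149, and 0.61 ± 0.17, adjusted p = 0.0392, with the array labelled control 0 hr replicate 1 left out). Tlr3 passed over that interval only with that array left out (0.51 ± 0.14, adjusted p = 0.0423, against 0.23 ± 0.19, adjusted p = 0.547, with it). Over that interval 7.15% of all genes passed in controls in either direction. Of 10 measured negative regulators Socs3, an inhibitor of Jak kinases, rose from 0 to 3 hr in Cebpa d/d by 0.96 ± 0.25 (adjusted p = 0.0411), and fell from 3 to 72 hr in controls by 0.79 ± 0.25 (adjusted p = 0.0395). Irf2, of the same list, fell from 0 to 72 hr in controls by 0.42 ± 0.10 (adjusted p = 0.0203). With the array labelled control 0 hr replicate 1 left out it did not pass (-0.39 ± 0.12, adjusted p = 0.059).

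Of 36 measured other interferon-induced genes, 0 rose and 2 fell from 0 to 3 hr in Cebpa d/d, the guanylate-binding genes Gbp4 (-1.34 ± 0.32, limma adjusted p = 0.0221) and Gbp7 (-1.18 ± 0.27, adjusted p = 0.0191). In controls 0 rose and 3 fell: Gbp4 (-1.43 ± 0.32, adjusted p = 0.0218), the nuclear body gene Sp100 (-0.97 ± 0.24, adjusted p = 0.0385) and Ifi27l2a (-1.11 ± 0.26, adjusted p = 0.0311). None of these 3 control calls was made with the array labelled control 0 hr replicate 1 left out, where Gbp4 was at -1.09 ± 0.31 (adjusted p = 0.0889), Sp100 at -0.64 ± 0.21 (adjusted p = 0.133) and Ifi27l2a at -1.05 ± 0.30 (adjusted p = 0.0950). Gbp7 at 0 hr was then higher in Cebpa d/d than in control arrays (0.90 ± 0.17, adjusted p = 0.0235, where 0.767% of all genes passed), against 0.44 ± 0.27 (adjusted p = 0.704) with all arrays. Without that array, Trim21 (-0.59 ± 0.12, adjusted p = 0.0103) and Sp100 (-0.71 ± 0.18, adjusted p = 0.0358) also fell from 0 to 3 hr in Cebpa d/d. There 2.14% of all genes fell. Gbp7 then also fell from 0 to 72 hr in Cebpa d/d (-0.83 ± 0.15, adjusted p = 0.00436). From 3 to 72 hr 2 rose in Cebpa d/d, Ifi27l2a (1.01 ± 0.26, adjusted p = 0.0245) and Parp12 (0.44 ± 0.12, adjusted p = 0.0356), and 1 rose in controls, Ifi27l2a (1.53 ± 0.26, adjusted p = 0.000902). Without the array labelled control 0 hr replicate 1, Irgm1 (0.67 ± 0.18, adjusted p = 0.0297) and Ly6e (0.27 ± 0.08, adjusted p = 0.0435) also rose in Cebpa d/d. Ly6e (0.28 ± 0.08, adjusted p = 0.0242) and Parp12 (0.33 ± 0.10, adjusted p = 0.0261) then also rose in controls. Of all genes 5.59% rose in Cebpa d/d and 12% in controls in that fit. Ccl5 (-0.86 ± 0.21, adjusted p = 0.0201) and Gbp4 (-1.07 ± 0.32, adjusted p = 0.0497) fell from 0 to 72 hr in controls, where 2.2% of all genes fell. Neither passed with the array labelled control 0 hr replicate 1 left out (-0.70 ± 0.22, adjusted p = 0.0719, and -0.73 ± 0.31, adjusted p = 0.171). Between genotypes 1 of the 36 passed over the mean of the 3 times: Ifitm1, which hinders virus entry, was higher in Cebpa d/d arrays by 0.58 ± 0.10 (adjusted p = 0.0275, where 0.306% of all genes passed, and 0.65 ± 0.09, adjusted p = 0.00215, with that array left out), at 10.78 to 11.09 in Cebpa d/d and at 10.03 to 11.02 in control arrays, where the highest value was again that of the array labelled control 0 hr replicate 1.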

How the data were processed

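The values were log2 levels per probe set, deposited by the authors in a single table for 18 Affymetrix Mouse Gene ST arrays, and RMA is the method that the submitters' processing notes name. RMA corrects background, normalizes arrays to a common distribution and summarises probes, so a shift shared by most genes would be removed. Its version and any filter are not given in the sources used here, and no scanner files were used, so the number of arrays limits the precision. Of 35557 probe sets, 21789 had 1 gene symbol, giving 19938 genes. With limma 3.58.1 in R 4.3.3, a mean per group was fitted for each gene on all 18 arrays (12 residual degrees of freedom), with empirical Bayes moderation and Benjamini-Hochberg adjustment over all 19938 genes, and was tested on simulated data. The 12 comparisons covered genotype, time and their interaction. Alternatives left out each array in turn or 2 together, or changed the spread, filter, probe set, centring, weights, sex term or replicate block. Same-numbered arrays of different groups did not deviate together (r of -0.288 to 0.199 over 45 pairs), so numbers were not taken as pairs. The members and the pathway and marker lists were chosen with earlier results of these data known. Per-array values are given for members that passed with all arrays or with the array labelled control 0 hr replicate 1 left out, and for Irf7, Irf9, Stat2, Irf1, Ifit1, Usp18, Cxcl10, Ifih1 and Psmb8. In each comparison the 2 largest differences in either direction are named, and up to 4 passing genes of a pathway list. Where a count of positive or negative differences stands without the share over all genes, it describes the set only. Marker sums are on the linear scale. Motifs were searched in RefSeq promoter windows.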

Additional observations from a re-analysis of the deposited data

How the results depend on the processing

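Between genotypes, and for the difference between genotypes in time course, 0 of 37 genes passed with all arrays and in each fit that left out 1 array. The 1 exception among all alternatives was Ifit1 over the mean of the 3 times, where 1 gene passed when Cebpa d/d 72 hr replicate 1 and the array labelled control 0 hr replicate 1 were both left out. Leaving out those 2 arrays gave, for the time comparisons, 2 (3 against 0 hr, Cebpa d/d), 7 (72 against 3 hr, Cebpa d/d), 0 (3 against 0 hr, control) and 5 genes (72 against 3 hr, control). Leaving out 1 array gave 0 to 2 genes for 3 against 0 hr, 0 to 2 for 72 against 0 hr and 0 to 4 for 72 against 3 hr in Cebpa d/d, and 0 to 9, 1 to 4 and 2 to 5 in control arrays. Fits on only the groups compared gave 2, 1 and 5 genes in Cebpa d/d and 0, 1 and 5 in control arrays, in the same order of intervals, and could not be made for the mean over times, which uses all groups. Array weights gave 1, 4 and 10 in Cebpa d/d and 6 for 72 against 0 hr in controls. A sex term gave 1 gene for 72 against 0 hr and 0 for 72 against 3 hr in Cebpa d/d. With the replicate block 1 gene passed for 72 against 0 hr in each genotype and 0 for 3 against 0 hr in controls, and since the numbers do not pair the arrays this says nothing of the size of the effect. Genes at or above the median level alone gave 6 for 3 against 0 hr and 4 for 72 against 0 hr in controls. Trend and robust moderation, and centred arrays, each gave 1 for 72 against 0 hr in each genotype. No difference that passed changed sign in any alternative. The share of all genes that passed is given above only for all arrays and for the fit without the array labelled control 0 hr replicate 1. For the other fits it is not given here, so a higher count in them is not read as a result about the set. The cause of these shifts was not tested. The precision is set by 3 arrays per group, and 1 of the 18 goes against its label.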
